A study of Homo sapiens with 6 samples.

Results

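The genes described here are 43 members of the distal long arm of human chromosome 18, bands 18q21 to 18q23, running from MBD1 to PARD6G. They were picked by name from a table of 20729 genes, with their difference between siOSBPL3 and siNC already known, so their values are given as a description and no p-value is printed for them. All 43 were found in the table, and 41 passed the filter on low counts. RNA-seq had been run on cells labelled SW620, an established colorectal cancer line, in 2 groups of 3 libraries each. The siOSBPL3 cells had received an siRNA against OSBPL3, a lipid-binding protein of the oxysterol-binding-protein family. The siNC cells had received a control siRNA. Both groups carry the same cell line label, and neither the dose nor the duration of the siRNA is given in the sources used here. The labels do not say whether replicates were separate cultures, and the spread between them may be technical.

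The long arm of chromosome 18 is among the chromosome segments most often lost in colorectal cancer. Loss or gain of a segment changes the dose of every gene on it at once, and the RNA of many of its genes tends to follow, while regulation of single genes moves their RNA apart. The question was therefore whether the members were shifted by a common step between the groups or gene by gene.

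The members as a whole stood higher in siOSBPL3, by about 2.01-fold at their median, and they differed widely among themselves. Their median log2 fold change (siOSBPL3 over siNC) was 1.01, against -0.00089 over all 15506 genes tested. The members' quartiles were 0.06 and 1.73, an interquartile range of 1.68, against 2.00 over all genes. Of the 41 tested members 31 had a positive fold change (75.6%, against 49.97% of all genes). Among these, RAB27B, RNF152 and TCF4 passed the filter only through the siOSBPL3 libraries. Within 0.5 of the members' median lay 11 (26.8%, against 27.6% of all genes within 0.5 of their own median). RAB27B, a GTPase of regulated secretion, had no count in siNC, whereas ONECUT2, a homeobox transcription factor, was lower in siOSBPL3 by 1.47 on the log2 scale.

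**Figure D1:**
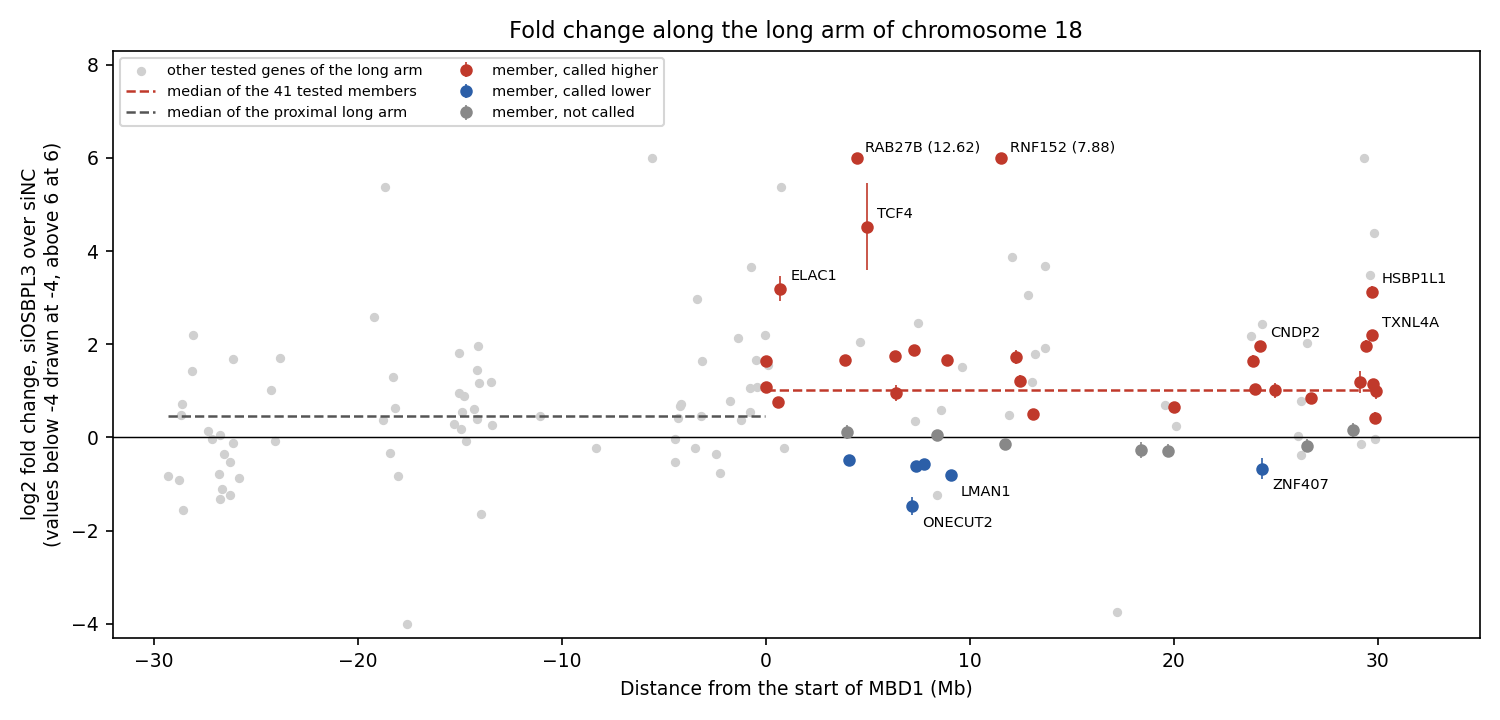
Log2 fold change of each tested member (coloured, bars are SE) and of the other tested genes of the long arm (pale grey) against the distance from the start of MBD1 in Mb, negative towards the centromere. Members stand mostly above 0, around a median of 1.01 (dashed red), with 10 below 0, and the proximal long arm has a median of 0.46 (dashed grey).

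The promoters of 4 members are shown because these genes mark the range of behaviour: RAB27B was silent in siNC, TXNL4A was among the highest and shares its start region with RBFA, CYB5A lay at the middle of the members, and ONECUT2 was the lowest. Each line is the 250 bases before the annotated start, from RefSeq on GRCh38.p14, read along the strand of the gene, with each CG dinucleotide in capitals.
RAB27B, + strand, chr18:54717607-54717856: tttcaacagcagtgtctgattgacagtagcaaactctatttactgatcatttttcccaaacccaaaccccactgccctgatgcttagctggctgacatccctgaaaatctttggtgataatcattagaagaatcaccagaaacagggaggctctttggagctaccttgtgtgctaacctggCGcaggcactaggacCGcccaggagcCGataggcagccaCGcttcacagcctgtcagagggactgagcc
TXNL4A, - strand, chr18:80033937-80034186: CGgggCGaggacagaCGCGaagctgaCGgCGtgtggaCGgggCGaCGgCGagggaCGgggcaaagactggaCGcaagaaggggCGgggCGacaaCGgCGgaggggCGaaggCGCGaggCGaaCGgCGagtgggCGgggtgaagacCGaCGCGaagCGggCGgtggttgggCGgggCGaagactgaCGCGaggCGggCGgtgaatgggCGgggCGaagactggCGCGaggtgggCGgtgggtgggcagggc
CYB5A, - strand, chr18:74291964-74292213: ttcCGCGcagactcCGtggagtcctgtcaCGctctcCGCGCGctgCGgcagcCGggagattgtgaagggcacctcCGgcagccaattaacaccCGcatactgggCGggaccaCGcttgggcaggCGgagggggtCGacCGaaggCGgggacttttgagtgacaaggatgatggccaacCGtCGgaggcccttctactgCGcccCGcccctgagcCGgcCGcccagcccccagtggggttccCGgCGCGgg
ONECUT2, + strand, chr18:57435124-57435373: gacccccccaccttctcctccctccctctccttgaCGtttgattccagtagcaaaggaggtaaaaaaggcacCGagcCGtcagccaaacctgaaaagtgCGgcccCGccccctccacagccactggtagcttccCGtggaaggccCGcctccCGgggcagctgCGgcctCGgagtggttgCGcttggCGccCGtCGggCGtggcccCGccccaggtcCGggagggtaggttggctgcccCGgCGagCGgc

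RefSeq promoters were found for 39 of the 43 members. The motif searched was CG, which reads the same on both strands and is the site of DNA methylation in human cells. At least 1 CG stood in 93.9% of the 35116 promoters compared, those of chromosome 8 left out. The member promoters held from 2 to 51 CG, with a median of 26, against 11 over all promoters. The promoters compared were not matched to the members in expression or gene type, so this difference cannot be tied to the segment. The RAB27B promoter held 4, and 70.7% of all promoters had at least as many. A second RefSeq start of RAB27B lies farther along the gene and is not shown. The promoters of TXNL4A, CYB5A and ONECUT2 held 39, 26 and 20. Across the 37 tested members with a promoter the number of CG and the log2 fold change had a Spearman correlation of 0.17, given as a description.

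The libraries differed far beyond this segment. Total counts ran from 30040020 to 39701340 per library. Levels are given as CPM, the count scaled to the TMM-adjusted library total. Log2 CPM across genes correlated between groups at 0.745 to 0.751, against 0.984 to 0.989 between siOSBPL3 libraries and 0.992 between siNC libraries. OSBPL3 itself had 40.2, 12.2 and 15.1 CPM in the siOSBPL3 libraries, against 179, 174 and 175 CPM in the siNC libraries (log2 fold change -2.97 ± 0.48 SE, adjusted p = 0.0016, edgeR quasi-likelihood test), so siOSBPL3 replicate 1 kept more of the transcript than the other 2. Of 14 colorectal epithelial markers, KRT20, CDX1, CEACAM5 and GPA33 were under 1 CPM in both groups, CDX1 without a count in siNC; the summed level of the 14 was 4973 to 6089 CPM in siOSBPL3 and 7163 to 7243 CPM in siNC. CDX2, an intestinal transcription factor, averaged 63.5 ± 9.66 CPM in siOSBPL3 and 1.15 ± 0.40 CPM in siNC (SD, n = 3 each), whereas the brush border gene VIL1 averaged 62.6 ± 2.38 CPM in siOSBPL3 and 482 ± 3.88 CPM in siNC, and the keratin gene KRT18 1131 ± 181 CPM in siOSBPL3 and 2184 ± 36.5 CPM in siNC. The 7 fibroblast markers in the table summed to 3.46 to 5.98 CPM in siOSBPL3 and 70.0 to 74.4 CPM in siNC, most of the siNC sum from LUM, which had no count in siOSBPL3, while COL3A1 had none in siNC. The 5 leukocyte markers in the table summed to 8.31 to 11.2 CPM in siOSBPL3 and 19.8 to 22.2 CPM in siNC, with PTPRC at 0.11 CPM in siOSBPL3 and 0.083 CPM in siNC, and the 2 endothelial markers in the table to 0.22 to 0.80 CPM in siOSBPL3 and 1.39 to 2.25 CPM in siNC. The part of these differences in the members' values was not tested, and an effect of the siRNA cannot be told apart from a difference between the cells of the groups.

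By library, the members' shift had the same sign in every siOSBPL3 library. The median log2 ratio to the siNC mean was 0.90, 1.11 and 1.09 in siOSBPL3 replicates 1, 2 and 3. Each siNC library set against the other 2 gave -0.0078, 0 and 0.025. Summed over the 43 members, RNA amounted to 1722, 1856 and 1916 CPM in the siOSBPL3 libraries, against 1054, 1046 and 1053 CPM in the siNC libraries, a ratio of means of 1.74. The groups did not overlap in this sum, and the siOSBPL3 libraries spread more widely (SD 99.2 CPM) than the siNC libraries (SD 4.61 CPM).

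**Figure D2:**
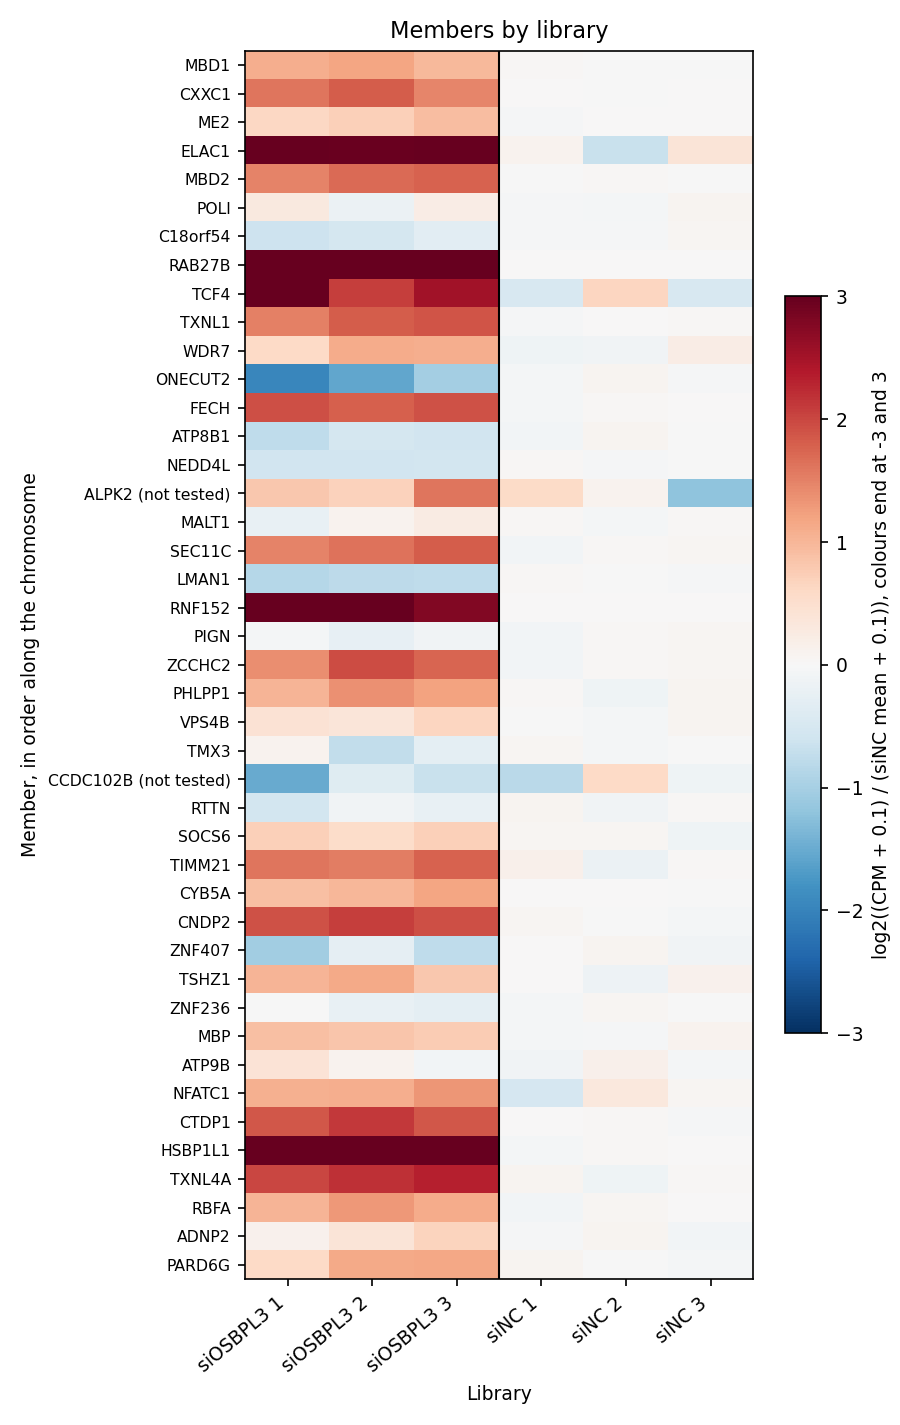
Log2 ratio of each member to its siNC mean in each of the 6 libraries, with 0.1 CPM added to both, members in order along the chromosome and siOSBPL3 libraries on the left. Rows that are red in all 3 siOSBPL3 libraries outnumber blue ones, and in some (such as TCF4 and PARD6G) the depth differs between libraries. Deep red (such as RAB27B, ELAC1 and HSBP1L1) and blue rows (such as ONECUT2 and LMAN1) lie among them. Colours are cut at a limit on either side, so the deepest rows cannot be ranked by colour.

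A member was called where its adjusted p in the fit across all genes was under 0.05. Of all genes tested 80.2% were called, 40.4% higher and 39.8% lower in siOSBPL3. Among the 41 members 34 were called, 28 higher and 6 lower, and 7 were not. RAB27B, RNF152 and TCF4, among those called higher, passed the filter on low counts only through the siOSBPL3 libraries. Their direction was thus fixed by the filter. The groups did not overlap for 28 members that were higher in siOSBPL3 and for 7 that were lower, against 41.5% and 41.5% of all genes. The contrast that gave these calls was also known when the members were picked, so the counts describe the list only.

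Genes of chromatin and transcription numbered 11, of which 8 were called higher, 2 lower and 1 not called, with a median log2 fold change of 1.09. The methyl-CpG-binding protein gene MBD2 had 110, 128 and 135 CPM in siOSBPL3, against 39.2, 40.04 and 38.9 CPM in siNC (log2 fold change 1.66 ± 0.09 SE). Its relative MBD1 was higher by 1.09 ± 0.09. CXXC1, which binds unmethylated CpG and belongs to a histone methyltransferase complex, was higher by 1.64 ± 0.11 and lies next to MBD1 on the same strand. The groups did not overlap in any of these 3 genes for readers of CpG, which also held, in this direction, for 41.5% of all genes. CTDP1, a phosphatase of the tail of RNA polymerase II, had 32.6, 39.2 and 32.7 CPM in siOSBPL3, against 8.89, 9.04 and 8.70 CPM in siNC (1.97 ± 0.11).

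Among the developmental regulators of that list ONECUT2 alone was called lower. It had 5.34, 7.08 and 10.3 CPM in siOSBPL3, against 20.2, 22.2 and 20.6 CPM in siNC (log2 fold change -1.47 ± 0.20 SE). It was the lowest of the members, and the groups did not overlap, but with the correction for GC content and transcript length its value was -0.33 and not called. TSHZ1, a zinc-finger homeobox factor, had 11.2, 12.3 and 9.73 CPM in siOSBPL3, against 5.51, 4.94 and 6.07 CPM in siNC (1.01 ± 0.16), which placed it at the members' median. NFATC1, a calcineurin-regulated factor, was higher by 1.19 ± 0.24 from a low level. TCF4, a basic helix-loop-helix factor, was near the limit of detection, with 1.91, 0.49 and 0.71 CPM in siOSBPL3, against 0, 0.12 and 0 CPM in siNC. Its group counts of 115 in siOSBPL3 and 4 in siNC gave a ratio of 24.5 (exact 95% interval 9.32 to 91.5, counting error only). All 4 siNC counts were in replicate 2, without which the fitted log2 fold change was 8.19 in place of 4.52. ADNP2, a homeobox protein gene, was higher by only 0.41 ± 0.13.

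The zinc-finger genes ZNF407 and ZNF236 lay below the members' median. ZNF407 had 3.18, 5.52 and 3.87 CPM in siOSBPL3, against 6.70, 7.05 and 6.20 CPM in siNC (log2 fold change -0.67 ± 0.22 SE), a call lost without siNC replicate 2 (-0.62). ZNF236 had 10.0, 8.75 and 8.22 CPM in siOSBPL3, against 9.83, 10.6 and 10.1 CPM in siNC, and the groups overlapped (-0.18 ± 0.14, not called).

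All 6 genes of mitochondria and metabolism were called higher, against 40.4% of all genes and 68.3% of the tested members. Their range was narrower than in the other lists, from 0.76 to 1.97 on the log2 scale, with a median log2 fold change of 1.40. CNDP2, a cytosolic dipeptidase, had 167, 187 and 170 CPM in siOSBPL3, against 46.6, 44.5 and 43.1 CPM in siNC (1.97 ± 0.08 SE). FECH, which inserts iron into protoporphyrin to make haem, had 91.2, 83.2 and 89.7 CPM in siOSBPL3, against 22.8, 24.7 and 24.2 CPM in siNC (1.88 ± 0.08). Both had more than 3 times the siNC level in every siOSBPL3 library. CYB5A, the electron carrier cytochrome b5, had 44.5, 48.0 and 54.5 CPM in siOSBPL3, against 24.2, 23.9 and 23.6 CPM in siNC (1.03 ± 0.10). TIMM21 of the import machinery of the inner mitochondrial membrane was higher by 1.65 ± 0.12, the mitochondrial ribosome-binding factor gene RBFA by 1.15 ± 0.10 and the mitochondrial malic enzyme gene ME2 by 0.76 ± 0.09.

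The 3 genes of nucleic acid processing and repair ranged from no detectable difference to among the largest. ELAC1, a tRNA-processing enzyme, had 9.08, 8.15 and 9.15 CPM in siOSBPL3, against 1.04, 0.57 and 1.28 CPM in siNC (log2 fold change 3.20 ± 0.27 SE). TXNL4A, a component of the spliceosome, had 121, 138 and 152 CPM in siOSBPL3, against 31.9, 27.5 and 30.5 CPM in siNC (2.19 ± 0.10). POLI, a translesion DNA polymerase, overlapped between the groups, with 13.4, 9.65 and 12.9 CPM in siOSBPL3, against 10.8, 10.5 and 11.7 CPM in siNC (0.13 ± 0.15, not called).

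Genes of the secretory pathway and of membrane traffic were the most divided, with 5 of 10 called higher, 2 lower and 3 not called, and a median log2 fold change of 0.33. RAB27B had 19.6, 24.0 and 24.6 CPM in siOSBPL3, against 0, 0 and 0 CPM in siNC. Its 2561 counts in siOSBPL3 made it at least 728-fold higher against a floor of 3 counts over the siNC group. RNF152, a lysosomal ubiquitin ligase, had 0.94, 1.01 and 0.58 CPM in siOSBPL3 and no count in siNC, and was at least 26.7-fold higher by the same floor. Both genes were thus detected in siOSBPL3 alone at this depth. Both bounds lie above the members' median, so setting the 2 genes at their bounds could not change it (1.01).

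In the same list SEC11C, a signal peptidase subunit, was higher by 1.65 ± 0.10 on the log2 scale (SE), WDR7, a regulator of vesicle acidification, by 0.96 ± 0.18 and VPS4B, an ATPase of the ESCRT machinery, by 0.49 ± 0.09. WDR7 had 9.75, 13.9997 and 13.8 CPM in siOSBPL3, against 5.85, 6.03 and 7.48 CPM in siNC. LMAN1, a cargo receptor between the endoplasmic reticulum and the Golgi, had 100.96, 106 and 109 CPM in siOSBPL3, against 189, 184 and 179 CPM in siNC (-0.80 ± 0.08). SEC11C and LMAN1, neighbours on the chromosome, thus stood on opposite sides of 0 as counted, without overlap between groups in either gene; with the correction for GC content and transcript length, LMAN1 was at -0.10 and not called. ATP8B1, a phospholipid flippase subunit, had 17.6, 20.5 and 19.8 CPM in siOSBPL3, against 28.2, 31.4 and 29.6 CPM in siNC (-0.62 ± 0.10).

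The remaining secretory members were not called as counted, and all 3 were called higher with the correction (PIGN 0.76, TMX3 0.60, ATP9B 0.72). PIGN, an enzyme of GPI anchor synthesis, had 19.3, 17.1 and 18.7 CPM in siOSBPL3, against 19.1, 20.6 and 20.97 CPM in siNC (log2 fold change -0.14 ± 0.11 SE). TMX3, a disulfide isomerase of the endoplasmic reticulum, had 52.2, 28.9 and 39.1 CPM in siOSBPL3, against 50.02, 46.6 and 47.9 CPM in siNC (-0.27 ± 0.16), with siOSBPL3 replicate 1 above all siNC libraries and the other 2 below them; it was called lower without that replicate (-0.50). The flippase gene ATP9B stood at 0.16 ± 0.16.

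Among 7 genes of signalling and protein turnover, 4 were called higher, 1 lower and 1 not called, and ALPK2 was not tested. TXNL1, a thioredoxin-like protein of the proteasome, had 126, 156 and 163 CPM in siOSBPL3, against 42.7, 44.1 and 45.3 CPM in siNC (log2 fold change 1.75 ± 0.10 SE). PHLPP1, a phosphatase acting on AKT, was higher by 1.21 ± 0.13 and SOCS6, a suppressor of cytokine signalling, by 0.66 ± 0.11. PARD6G, a cell polarity adaptor, had 10.3, 15.1 and 15.4 CPM in siOSBPL3, against 7.22, 6.75 and 6.51 CPM in siNC (1.00 ± 0.17). The ubiquitin ligase gene NEDD4L went the other way, with 56.3, 56.1 and 57.2 CPM in siOSBPL3, against 86.2, 81.5 and 82.9 CPM in siNC (-0.56 ± 0.07). MALT1, a paracaspase of NF-kB signalling, overlapped between the groups (0.06 ± 0.11, not called), although without siOSBPL3 replicate 1 it was called at 0.19. ALPK2, an alpha-kinase gene, had 0.30, 0.27 and 0.61 CPM in siOSBPL3, against 0.24, 0.15 and 0 CPM in siNC, a ratio of 2.95 (exact 95% interval 1.56 to 5.96, counting error only).

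The last list held genes of the centrosome and of other roles, with 3 called higher, 1 lower and 1 not called of 5 tested. HSBP1L1, a relative of a heat shock factor binding protein, had 47.9, 40.4 and 43.0 CPM in siOSBPL3, against 4.81, 5.12 and 5.09 CPM in siNC (log2 fold change 3.13 ± 0.12 SE). It overlaps TXNL4A by 10 bases on the other strand, and the strand setting of the counting is not given in the sources used here. ZCCHC2 was higher by 1.73 ± 0.15 and MBP, the myelin basic protein gene, by 0.84 ± 0.09. C18orf54 had 12.5, 13.3 and 15.4 CPM in siOSBPL3, against 18.8, 18.9 and 20.3 CPM in siNC (-0.49 ± 0.12). RTTN, a centriole protein gene, had 11.8, 15.9 and 14.9 CPM in siOSBPL3, against 18.1, 15.9 and 17.7 CPM in siNC (-0.28 ± 0.13). RTTN was not called, although its groups narrowly did not overlap, and without siOSBPL3 replicate 2 it was called at -0.36. The centrosomal gene CCDC102B was not tested, at 0.055, 0.25 and 0.18 CPM in siOSBPL3 and 0.15, 0.57 and 0.30 CPM in siNC.

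Along the segment called members lay in runs as well as singly. The first 5 members, MBD1 to MBD2, were all called higher, and so were the last 7, NFATC1 to PARD6G. Of the tested members 68.3% were called higher, and of all genes 40.4%. Other tested genes lie between the members of these runs, some above and some below 0, so the runs hold for the list only. Members were put into 3 blocks by position, split before TXNL1 and before TMX3, after the values had been seen. The 9 tested members from MBD1 to TCF4 had a median log2 fold change of 1.64, the 14 from TXNL1 to VPS4B of 0.73, and the 18 from TMX3 to PARD6G of 1.00. RAB27B and TCF4 in the first block and RNF152 in the middle block passed the filter only through the siOSBPL3 libraries. Called lower were 1, 4 and 1 members in that order, so that 4 of the 6 lower members (ONECUT2, ATP8B1, NEDD4L and LMAN1) lay in the middle block. With the correction for GC content and transcript length, 9, 11 and 17 members of these blocks were above 0. The corrected medians were 1.65, 1.01 and 1.03, so the middle block then lay level with the last. Consecutive members differed by a median of 1.02 on the log2 scale over 40 pairs, against 1.299 over 14483 pairs of consecutive tested genes on all autosomes. A difference over 1 was found in 52.5% of member pairs and in 59.3% of all pairs. The member pairs skip the 30 other tested genes of the segment, whereas the autosome pairs skip no tested gene with a position. The 2 sets of pairs are therefore not like for like. TXNL4A and RBFA, whose promoters meet head to head on opposite strands, stood at 2.19 and 1.15.

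The higher level was shared by genes of the segment that are not members. There were 49 such genes in the table, of which 30 were tested, with a median log2 fold change of 1.53; 20 were called higher (66.7%) and 3 lower (10.0%). Nearer the centromere the values were smaller as counted. The 68 tested genes of the long arm from 18 Mb to MBD1 had a median of 0.46, with 38 called higher and 15 lower. The 60 of the short arm had a median of -0.19, with 19 called higher and 25 lower. With the correction for GC content and length these medians were 0.90 and 0.12, against 1.05 for the members. The proximal long arm thus came close to the members under the correction, and the short arm did not. As counted, the other 21 autosomes had medians from -0.43 to 0.84, the highest on chromosome 19, and interquartile ranges from 1.64 to 2.07. The members' median thus lay above that of each other autosome, and their interquartile range of 1.68 lay near the low end of that range. A list of 41 genes is far smaller than an autosome, and no test of this difference was made. Chromosome 18 as a whole, the like comparison, had a median of 0.46, rank 3 of the 22 autosomes. With the correction for GC content and length it had 0.83, rank 1.

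**Figure D3:**
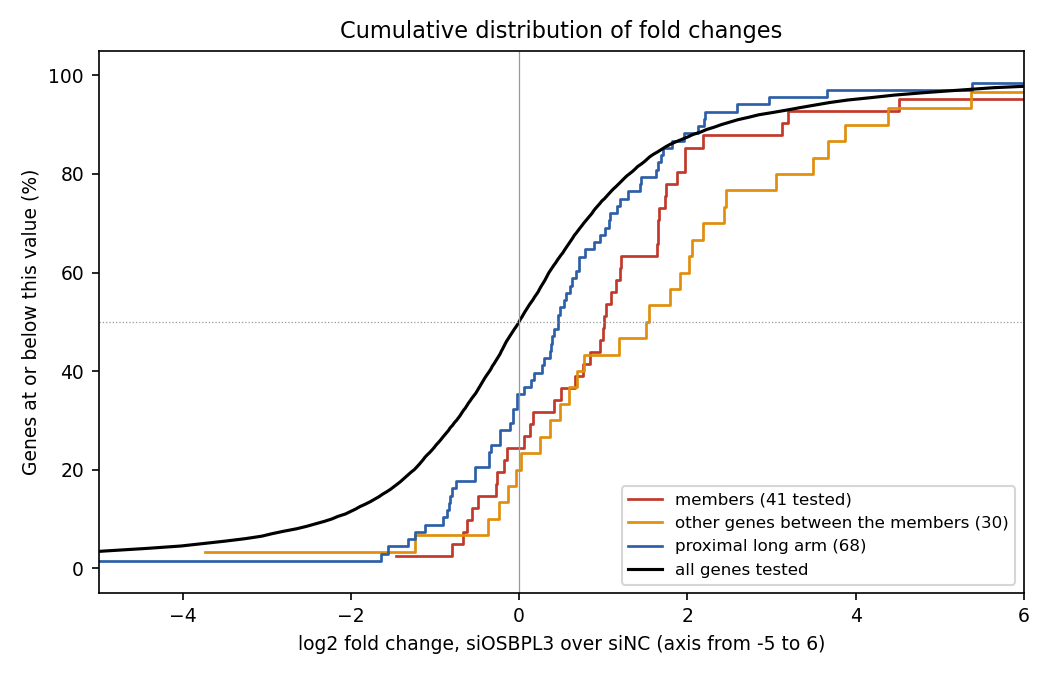
Percentage of genes at or below each log2 fold change (siOSBPL3 over siNC) for the members, the other tested genes between them, the proximal long arm and all genes tested. The curves cross 50% at 1.01, 1.53, 0.46 and -0.00089, and the members' curve is displaced to the right over most of its course. The interquartile range was 1.68 for the members, 2.18 for the other tested genes between them and 2.00 for all genes. Whether the displacement is a common step was not tested.

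**Figure D4:**
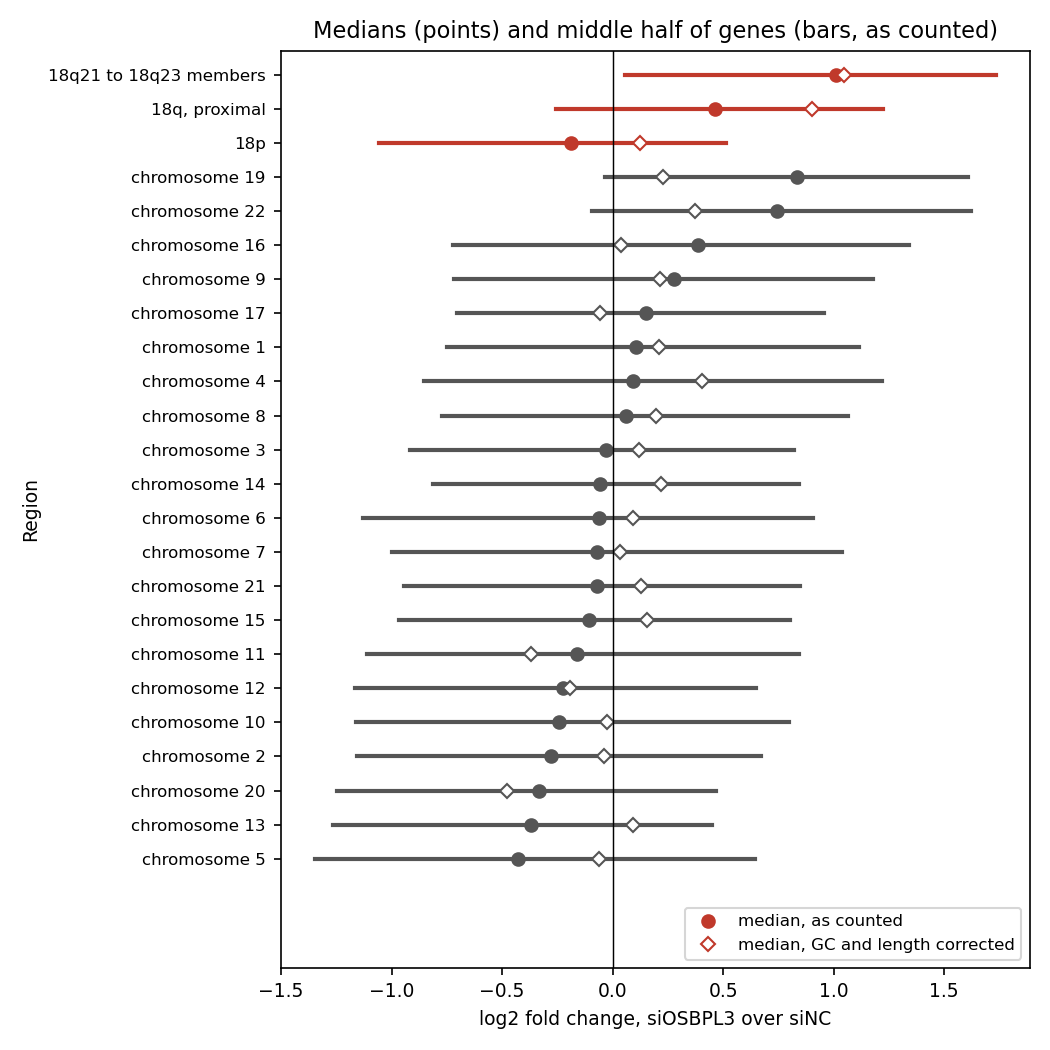
Median log2 fold change (filled points), the quartiles (bars) and the median after correction for GC content and length (open diamonds) for the members, the proximal long arm and the short arm of chromosome 18 and the other 21 autosomes. Among these the members have the highest median as counted (1.01) and corrected (1.05). The other genes between the members, whose median as counted was 1.53, are not drawn. With the correction the proximal long arm moves closer to the members (0.90), and chromosomes 19 and 22 move towards 0.

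Fold changes moved with transcript composition in these libraries, and the members' values were sensitive to it. Across 13818 genes the log2 fold change had a Spearman correlation of 0.38 with the GC content of the longest transcript and of -0.22 with its length. The tested members have transcripts of lower GC content (median 44.0%, against 49.0%) and greater length (median 5913 bases, against 3532). A correction for both in each library removes any difference between the groups that follows GC content or length, whether technical or not. Which of these it was here was not tested. With this correction the members' median log2 fold change was 1.05, against 0.06 over all genes that could be corrected. Their interquartile range became 1.31, against 1.53, and 17 of 41 lay within 0.5 of their median (41.5%, against 35.5% of all genes). Corrected values were above 0 for 37 of 41 members, of which 35 were called higher and 0 lower, against 41.1% and 37.2% of all genes. The highest corrected median of another autosome was 0.40, and those of the proximal long arm and the short arm were 0.90 and 0.12.

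Under that correction the members that had been lower moved towards or past 0. ONECUT2 became -0.33, ZNF407 -0.30, ATP8B1 -0.15 and LMAN1 -0.10, and none of these 4 was called. NEDD4L became 0.10 and was not called, and C18orf54 turned to 0.53 and was called higher. POLI (1.05), MALT1 (0.99), PIGN (0.76), ATP9B (0.72), TMX3 (0.60) and RTTN (0.35), which had not been called, were called higher. CXXC1, NFATC1 and CTDP1, with GC-rich transcripts, came down to 0.93, 0.65 and 1.43, and TXNL1, WDR7, CYB5A, ME2 and SOCS6 went up to 2.63, 1.86, 1.76, 1.65 and 1.48, and VPS4B to 1.03. RAB27B and RNF152 had no count in siNC with or without the correction. ELAC1 stood at 3.34 and HSBP1L1 at 3.06, while FECH (2.16) and TXNL4A (2.10) lay below TXNL1 and close to TIMM21 (2.01), SEC11C (2.00) and MBD2 (1.96), and CNDP2 was at 1.84.

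**Figure D5:**
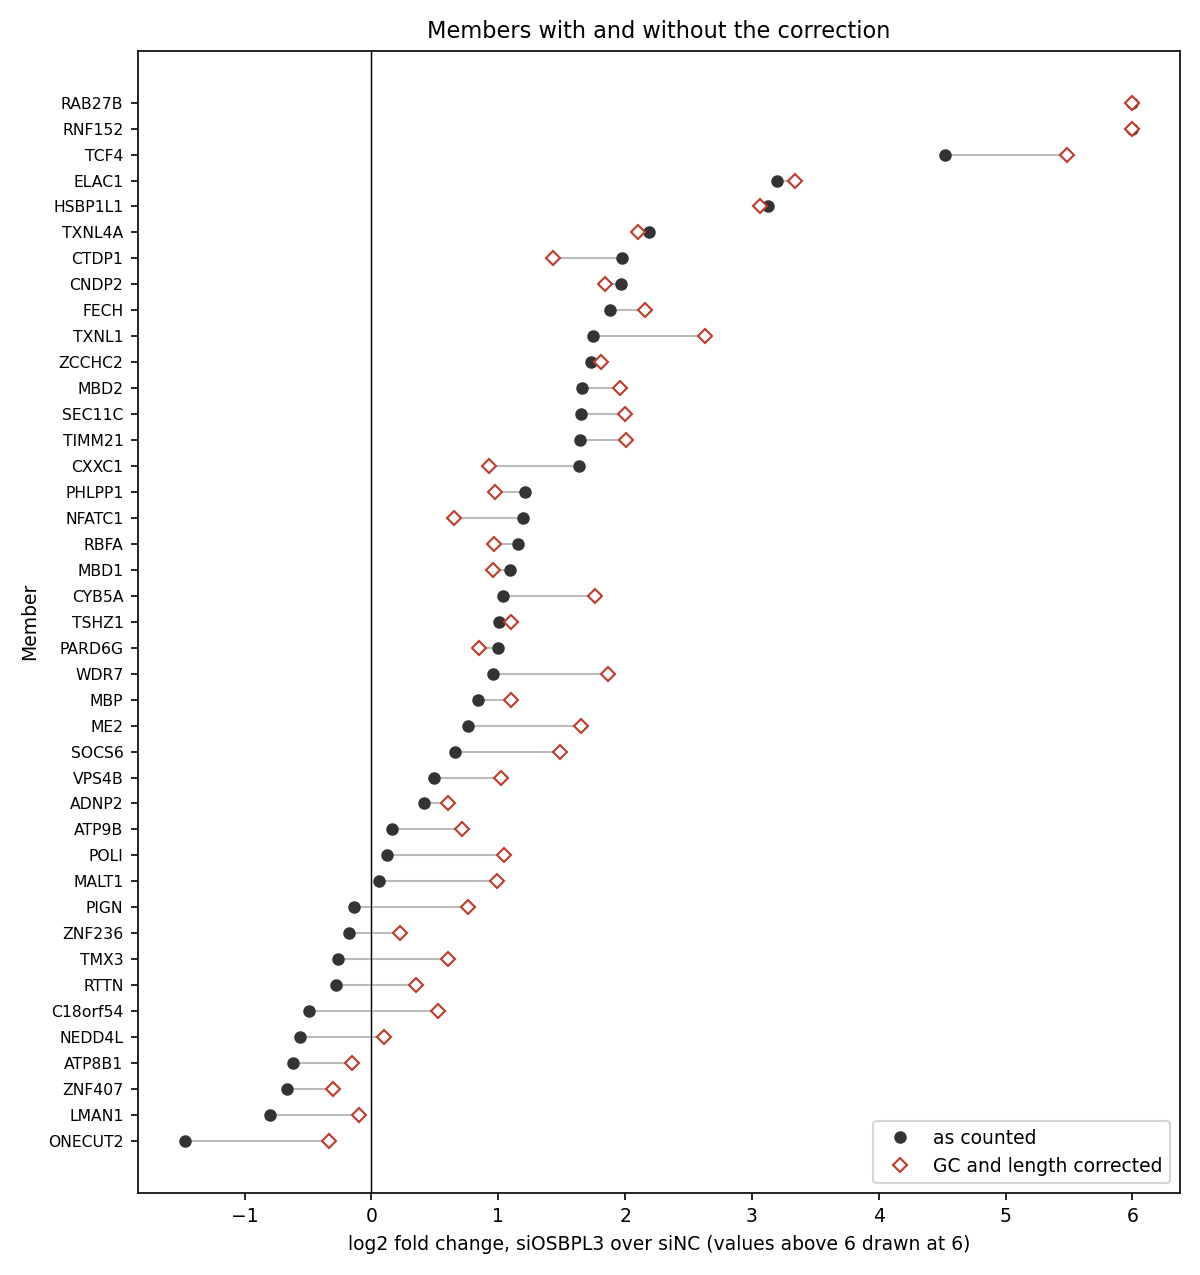
Log2 fold change (siOSBPL3 over siNC) of each tested member as counted (filled) and after the correction for GC content and transcript length (open), members ordered by the value as counted. With the correction 37 of 41 stand above 0, against 31 as counted, and the lowest member, ONECUT2, stands at -0.33, against -1.47 as counted.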

How the data were processed

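RNA-seq was measured in 6 libraries of cells labelled SW620, 3 with siOSBPL3 and 3 with siNC. The authors deposited whole-number read counts per gene symbol, not normalized; per the submitters' processing notes, HISAT2 2.2.1, HTSeq 0.13.5 and GRCh38 are named. Annotation, strand setting and counting options are not given in the sources used here. Groups came from sample titles and columns from library names.

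Counts were tested with edgeR 4.0.16 (R 4.3.3): filterByExpr (minimum count 10, total 15), TMM scaling, a robust quasi-likelihood fit on group, two-sided, Benjamini-Hochberg adjustment over all 15506 genes, threshold 0.05. The script was tested on simulated data. CPM values use TMM-scaled totals; 3 counts over a group equal 0.027 CPM in siOSBPL3 and 0.031 CPM in siNC. The SE is the log2 fold change divided by the root of F. Positions came from RefSeq on GRCh38.p14.

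For the correction, the deviation of each library's log2 CPM from the mean of all 6 libraries was smoothed on GC content and log transcript length. Both were taken from the longest GENCODE 29 transcript (mgcv 1.9.3, 89.1% of tested genes, all 41 tested members). The smoothed deviation entered as an offset, so differences between the groups that follow GC content or length were removed whatever their origin. It covered 20 of the 30 other genes of the segment, too few for that set. Alternatives were DESeq2 1.42.0, limma-voom (limma 3.58.1), RLE factors, library totals, other filters, a 0.01 threshold, each library left out and a block for replicate number.

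Replicates differed by more than sampling noise (ratio of chi-square to its degrees of freedom 19.5 to 52.1 in siOSBPL3, 2.98 to 3.59 in siNC). Members and lists were chosen with earlier results of these data known. The rule for named genes was to name every member, with values in each library for the 10 highest, the 10 lowest, the 4 nearest the median and any under 15 counts in a group; MBD2, POLI and CCDC102B were added after their values were seen.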

Additional observations from a re-analysis of the deposited data

How the results depend on the processing

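The members' median log2 fold change ran from 0.93 to 1.10 over all alternatives, each library left out included, and from 24 (with a filter of a mean of at least 5 CPM, which left out low members) to 35 members were called higher. Leaving out 1 library gave 11814 to 13034 genes called in all (5995 to 6481 higher, 5803 to 6553 lower), 33 to 36 members called (5 to 7 lower), an interquartile range of the members of 1.65 to 1.94 (1.94 without siOSBPL3 replicate 1), 11 to 12 members within 0.5 of the median, and a median of the other genes of the segment of 1.51 to 1.75. That median was 1.35 without a filter, and 1.86 over the 20 of its 30 genes that could be corrected for GC content and length, a different set of genes. The correction gave 0 members called lower, an interquartile range of 1.31 and 17 members near the median, and turned the sign of 2 called members, NEDD4L (0.10) and C18orf54 (0.53), and of RTTN (0.35), TMX3 (0.60), PIGN (0.76) and ZNF236 (0.23), which had not been called. A band of 1 in place of 0.5 held 25 members. Without the members under 15 counts in a group, an alternative added after the data were seen, the median was 0.98. Of the values of named members under an alternative, 311 moved by less than the spread between replicates, 20 moved by more, 15 of them under the correction, and the 2 called members above changed sign. Samples with the same replicate number did not deviate together (correlations -0.0061, -0.0088 and -0.0043), so the numbers pair nothing; with the replicate block 12277 genes were called in place of 12437, and the members' median was 1.01. TMX3 was called lower with the block (-0.30). Depth limits RNF152, TCF4, ALPK2 and CCDC102B, each under 2 CPM.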
